A study of Homo sapiens with 8 samples.

Results

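The cyclin-dependent kinase inhibitor genes are the INK4 genes CDKN2A, CDKN2B, CDKN2C and CDKN2D and the CIP/KIP genes CDKN1A, CDKN1B and CDKN1C. They were taken by name, as 7 of the 19970 protein-coding genes that GENCODE 44 places on chromosomes 1 to 22 and X of GRCh38. Every called peak in the body of such a gene or within 10 kb of any of its transcription start sites was collected, with CDKN2A and CDKN2B treated as 1 locus. Peaks from different libraries were joined into 1 region wherever they overlapped by 1 bp or more, and the windows held 24 of the 101836 regions of the series.

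The study used ATAC-seq, in which the Tn5 transposase cuts accessible DNA, to ask how mutant EZH2 alters accessibility in HEK293T, a human embryonic kidney line. Each of the 4 stable lines made by lentiviral infection expressed exogenous EZH2 on top of the endogenous gene, either the wild type (WT), Y641F or A677G, described by the study as gain of function (GOF), or H689A/F667I, described as loss of function. All lines, the WT line included, therefore carried an added EZH2, and ATAC-seq of cells with an empty vector was not analysed here. Each line had 2 libraries, which the study calls independent biological replicates, so p-values measure the spread between replicates of 1 line per EZH2 form.

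INK4 proteins bind CDK4 and CDK6 and keep them from pairing with D-type cyclins, whereas CIP/KIP proteins bind assembled cyclin-CDK complexes, CDK2 complexes above all. Both families slow entry into S phase through the retinoblastoma protein. EZH2 is the catalytic subunit of the Polycomb complex PRC2, the writer of the silencing mark H3K27me3, and CDKN2A is a classic target of that mark. HEK293T cells carry the adenoviral E1 genes and the SV40 large T antigen, which bind the retinoblastoma protein and p53.

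The lists held 26350 to 64923 peaks per library, most in the 2 WT libraries (64923 and 62514) and fewest in the 2 Y641F libraries (26350 and 36598), with 47840 and 48755 in H689A/F667I and 38016 and 46358 in A677G. Read depth was not given for these libraries, so an absent peak means that none was called, and the part of depth in peak number was not tested. A promoter peak was present in all 8 libraries for 6 of 8 epithelial, kidney and neuronal genes typical of the line. Of 6 genes of other cell types, PTPRC, CD3E and ALB had no promoter peak in any library and COL1A1 had one in all 8.

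All 7 inhibitor genes had a peak within 1 kb of a start site in all 8 libraries, against 59.2% of protein-coding genes. Of 18 regions that were open in both WT libraries, 4 had no peak in either Y641F library, 2 in CDKN1B and 2 upstream of CDKN1C. The sequences on which the results turn are shown first, as 200 bases each. The regions without a peak in Y641F are read from hg38, plus strand, around the middle of the stretch inside the outer peak ends of every other library or, where that stretch was shorter, of the whole region. The first bases of the CDKN1B intron stretch lie in a gap between 2 peaks of A677G library 2. The promoters are the 200 bases before a RefSeq start site (GRCh38.p14), on the strand of the gene. Capitals mark the GC box GGGCGG, the CCAAT box CCAAT, the TATA box TATAAA, the E-box CACGTG and the E2F sites TTTCGCGC and TTTGGCGC on either strand, and no matches overlapped in the sequences shown.
CDKN1B intron, chr12:12704635-12704834, no peak in Y641F: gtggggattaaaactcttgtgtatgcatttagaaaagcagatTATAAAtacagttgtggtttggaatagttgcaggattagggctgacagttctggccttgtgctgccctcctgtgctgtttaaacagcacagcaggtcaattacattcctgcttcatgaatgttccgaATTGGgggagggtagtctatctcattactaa
CDKN1C upstream, chr11:2892470-2892669, no peak in Y641F: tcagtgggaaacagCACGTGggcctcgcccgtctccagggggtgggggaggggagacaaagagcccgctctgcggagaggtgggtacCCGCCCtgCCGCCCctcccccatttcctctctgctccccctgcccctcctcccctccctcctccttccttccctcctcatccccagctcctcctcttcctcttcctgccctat
CDKN1C upstream, chr11:2888446-2888645, no peak in Y641F: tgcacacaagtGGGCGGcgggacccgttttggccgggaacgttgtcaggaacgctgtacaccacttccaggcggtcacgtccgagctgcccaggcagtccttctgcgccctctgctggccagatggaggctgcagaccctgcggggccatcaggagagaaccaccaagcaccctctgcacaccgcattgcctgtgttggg
CDKN1B promoter, chr12:12717168-12717367, plus strand, open in all 8 libraries: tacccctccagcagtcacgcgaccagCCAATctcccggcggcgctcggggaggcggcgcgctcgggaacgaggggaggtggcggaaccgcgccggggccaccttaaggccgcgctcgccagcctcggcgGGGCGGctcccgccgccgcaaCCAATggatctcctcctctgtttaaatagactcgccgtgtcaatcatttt
CDKN2A promoter of the p14ARF transcript, chr9:21995325-21995524, minus strand, open in all 8 libraries: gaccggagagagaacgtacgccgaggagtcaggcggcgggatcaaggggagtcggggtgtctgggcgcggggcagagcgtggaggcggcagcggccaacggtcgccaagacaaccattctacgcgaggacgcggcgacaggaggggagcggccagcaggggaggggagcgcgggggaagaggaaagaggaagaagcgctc
CDKN2B promoter, chr9:22009306-22009505, minus strand, open in all 8 libraries: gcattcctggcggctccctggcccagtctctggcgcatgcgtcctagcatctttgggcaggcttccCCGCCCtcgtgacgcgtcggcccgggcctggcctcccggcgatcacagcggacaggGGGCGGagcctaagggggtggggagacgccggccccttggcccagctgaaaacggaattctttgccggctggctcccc
CDKN2C canonical promoter, chr1:50970045-50970244, plus strand, part of a region that differed in shape: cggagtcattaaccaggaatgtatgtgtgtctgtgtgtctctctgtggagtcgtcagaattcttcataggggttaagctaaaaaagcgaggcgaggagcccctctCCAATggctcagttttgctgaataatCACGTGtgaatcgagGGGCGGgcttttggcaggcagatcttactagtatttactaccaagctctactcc

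Base composition set most of the open promoters apart from the CDKN1B intron. The intronic stretch had a GC content of 42.5% and 1 CpG, whereas the CDKN1B promoter had 68.5% and 26 CpG, the p14ARF promoter 69.5% and 23, and the CDKN2B promoter 70.5% and 17. The 2 CDKN1C stretches had 67.5% and 64.5%, below these 3 promoters, with 7 and 12 CpG. Other promoters in regions open in all 8 libraries did not follow this order. The CDKN2C canonical promoter had 48.0% and 7 CpG, and the one at the first CDKN2C start 43.5% and 5 CpG. Both lay near the intron and below the CDKN1C stretches, and the p16 promoter had 67.5%. Over whole regions, the 4 members' regions without a peak in Y641F had a median GC content of 51.8% (41.7 to 67.0%) and the 14 others open in both WT libraries 62.1% (49.2 to 73.1%). Among all 48615 regions open in both WT libraries, those without a peak in Y641F likewise had the lower median, 47.9% against 54.8%.

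Of the 9 RefSeq promoters found for 6 of the 7 genes, 7 held a GC box, 2 a CCAAT box, 1 an E-box and none a TATA box or an E2F site. Over 34943 RefSeq promoters of this length the shares were 40.0% for the GC box, 28.1% for the CCAAT box, 5.48% for the E-box, 8.61% for the TATA box and 0.784% for the E2F sites. The middle 200 bases of the 48615 regions held them in 22.4%, 21.3%, 3.16%, 9.37% and 0.387%, in the same order of motifs. These matches describe letters and not bound factors.

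Of the 24 regions, 13 were open in all 8 libraries. Counting regions open in at least 2 libraries, that was 13 of 20 for the inhibitor genes, against 30.4% of 61878 regions of the series. These shares were not matched for region width. The 13 comprised 4 of the 5 regions of the CDKN2A/CDKN2B locus, all 3 of CDKN2C, both of CDKN1A, 2 of 6 of CDKN1B, 1 of 5 of CDKN1C and 1 of 3 of CDKN2D. The 4 regions open in a single library were about 200 bp wide, 2 of them in WT library 1.

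**Figure D1:**
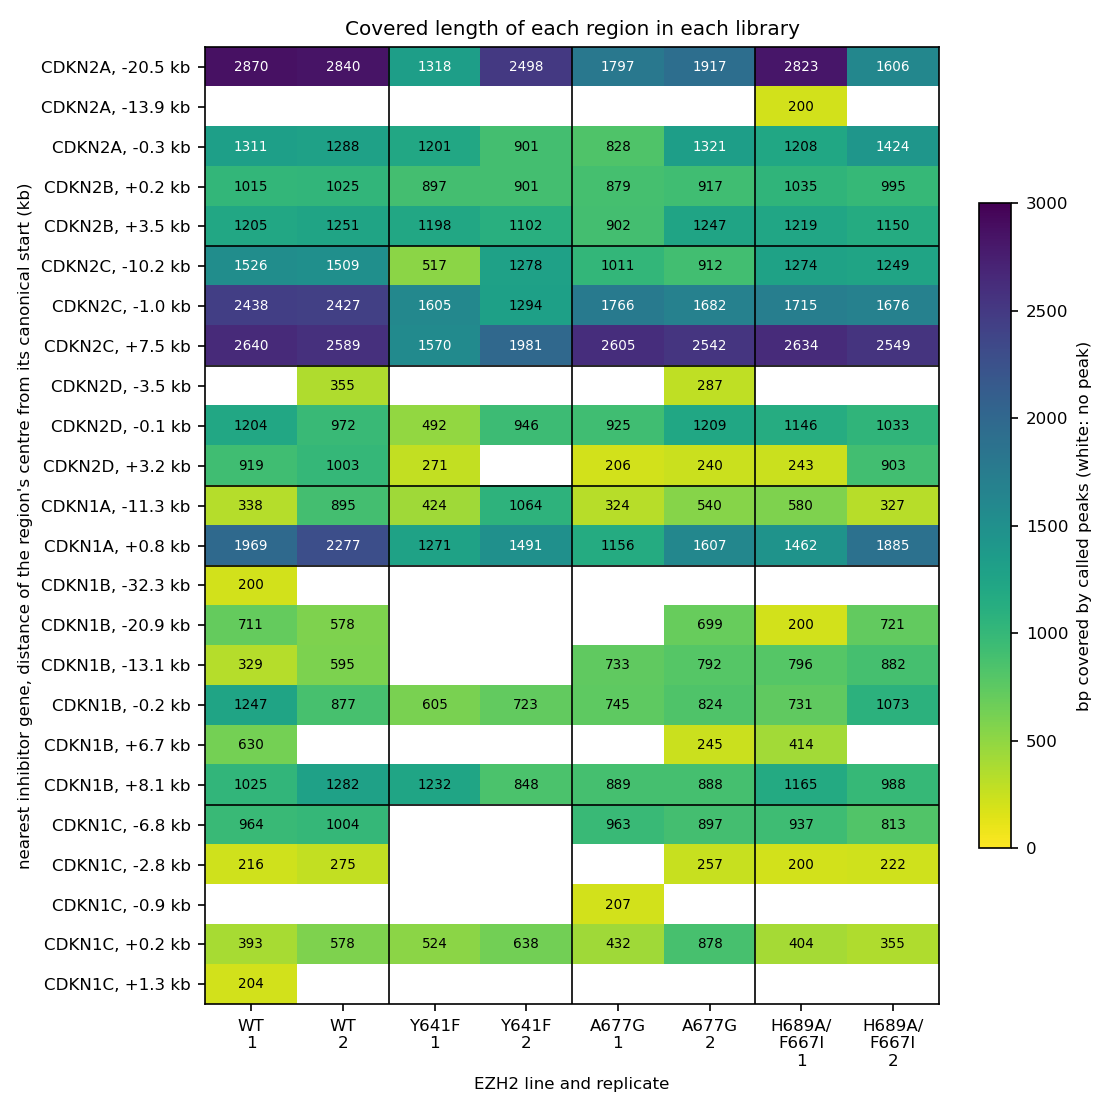
Base pairs covered by called peaks in each of the 24 regions (rows, by nearest inhibitor gene and distance of the region's centre from its canonical start in kb) and each of the 8 libraries (columns), white where no peak was called. The 2 Y641F columns are white in 4 rows of CDKN1B and CDKN1C that are filled in both WT columns.

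Of the 18 members' regions open in both WT libraries, the Y641F line lacked 4, against 35.3% of all regions open in both WT libraries. A677G lacked 0 of the 18, against 20.8%, and H689A/F667I 0 of the 18, against 14.2%. The 4 of 18 in Y641F was a smaller share than over the series, and no test of this was made. Over the series, regions open in both WT libraries had a median width of 627 bp if Y641F lacked them and 1074 bp if not. For members' regions the medians were 910 and 1409.5 bp, and no share was taken among regions of like width. No members' region was closed in both WT libraries and open in 2 others, so none could count as gained. In bulk libraries, fewer cells with a region open and less opening in each cell cannot be told apart.

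CDKN1B encodes p27, which holds cyclin E-CDK2 inactive in resting cells. Its gene (ENSG00000111276.12, chr12:12685498-12722369, plus strand) has 8 annotated start sites, and the canonical one lies at 12717368. The region chr12:12703632-12704982, centred 13062 bp upstream of the canonical start, lay in an intron of the longer transcripts and touched no exon of the gene. In this region the highest fold over local background was 5.70 and 4.93 in the WT libraries, 5.17 and 5.30 in H689A/F667I and 3.71 and 4.50 in A677G, and no peak was called in either Y641F library. The WT values were the highest of all members' regions open in both WT libraries, taking the lower library of each. That lower WT fold, 4.93, was at or above that of 97.7% of the 17151 regions that Y641F lacked, and its −log10 p of 8.67 at or above that of 97.7%. For the CDKN1B region chr12:12696045-12696845 these shares were 83.4% in fold and 75.3% in −log10 p. Upstream of CDKN1C they were 28.4% and 88.7% for chr11:2888401-2888690, and 15.2% and 59.5% for chr11:2892069-2893087.

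When each library was reduced to its 26350 peaks with the highest −log10 p, this CDKN1B intron was the only 1 of 10 members' regions still lost in Y641F, against 11.6% of all regions in lists of equal length. Under the same lists the other 3 regions could not count as lost, since they were then no longer in both WT lists. Where a peak had to cover 50% of a region, the intron, covered over 329 and 595 bp in WT, counted instead as closed in WT and gained in A677G and H689A/F667I, so its call rests on counting any overlap. With only peaks of a −log10 q of at least 5, the intron was lost in A677G as well as in Y641F. In A677G library 2 the intron was covered by 2 separate peaks and in A677G library 1 by 1 peak of 733 bp.

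A second CDKN1B region, chr12:12696045-12696845, lay within 1 kb of 3 alternative CDKN1B start sites and of a start of GPR19, which encodes an orphan G protein-coupled receptor. It was covered over 711 and 578 bp in WT, 200 and 721 bp in H689A/F667I and 0 and 699 bp in A677G, and had no peak in Y641F. One library of A677G thus lacked it as well. The canonical CDKN1B promoter, chr12:12716440-12717915, was open everywhere, over 1247 and 877 bp in WT, 731 and 1073 bp in H689A/F667I, 605 and 723 bp in Y641F, and 745 and 824 bp in A677G. Its fold was 3.87 and 3.18 in WT and 3.47 and 3.57 in Y641F, so the 2 lines overlapped there.

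CDKN1C encodes p57, and is an imprinted gene (ENSG00000129757.15, chr11:2883213-2885775, minus strand). Its promoter region, chr11:2885094-2886009, was open in all 8 libraries and had the lowest mean fold of the 7 genes, though not the lowest in A677G library 1 and H689A/F667I library 1. Its fold was 2.75 and 2.70 in WT, 3.23 and 3.26 in H689A/F667I, 3.05 and 3.12 in Y641F, and 3.56 and 2.71 in A677G. Both WT libraries lay below all other libraries except A677G library 2, which lay between them. Upstream, the region chr11:2892069-2893087 was covered over 964 and 1004 bp in WT, 937 and 813 bp in H689A/F667I and 963 and 897 bp in A677G, and it had no peak in either Y641F library. All 6 libraries outside Y641F thus had a peak of similar length there.

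The region chr11:2888401-2888690, within 1 kb of a start of SLC22A18AS, an antisense transcript of the neighbouring gene, was smaller. It was covered over 216 and 275 bp in WT, 200 and 222 bp in H689A/F667I and 257 bp in A677G library 2, with no peak in A677G library 1 or in Y641F. In Y641F the CDKN1C promoter was therefore the only peak left of the window, of 524 and 638 bp. Its window was covered over 1777 and 1857 bp in WT, 1541 and 1390 bp in H689A/F667I and 1602 and 2032 bp in A677G.

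**Figure D2:**
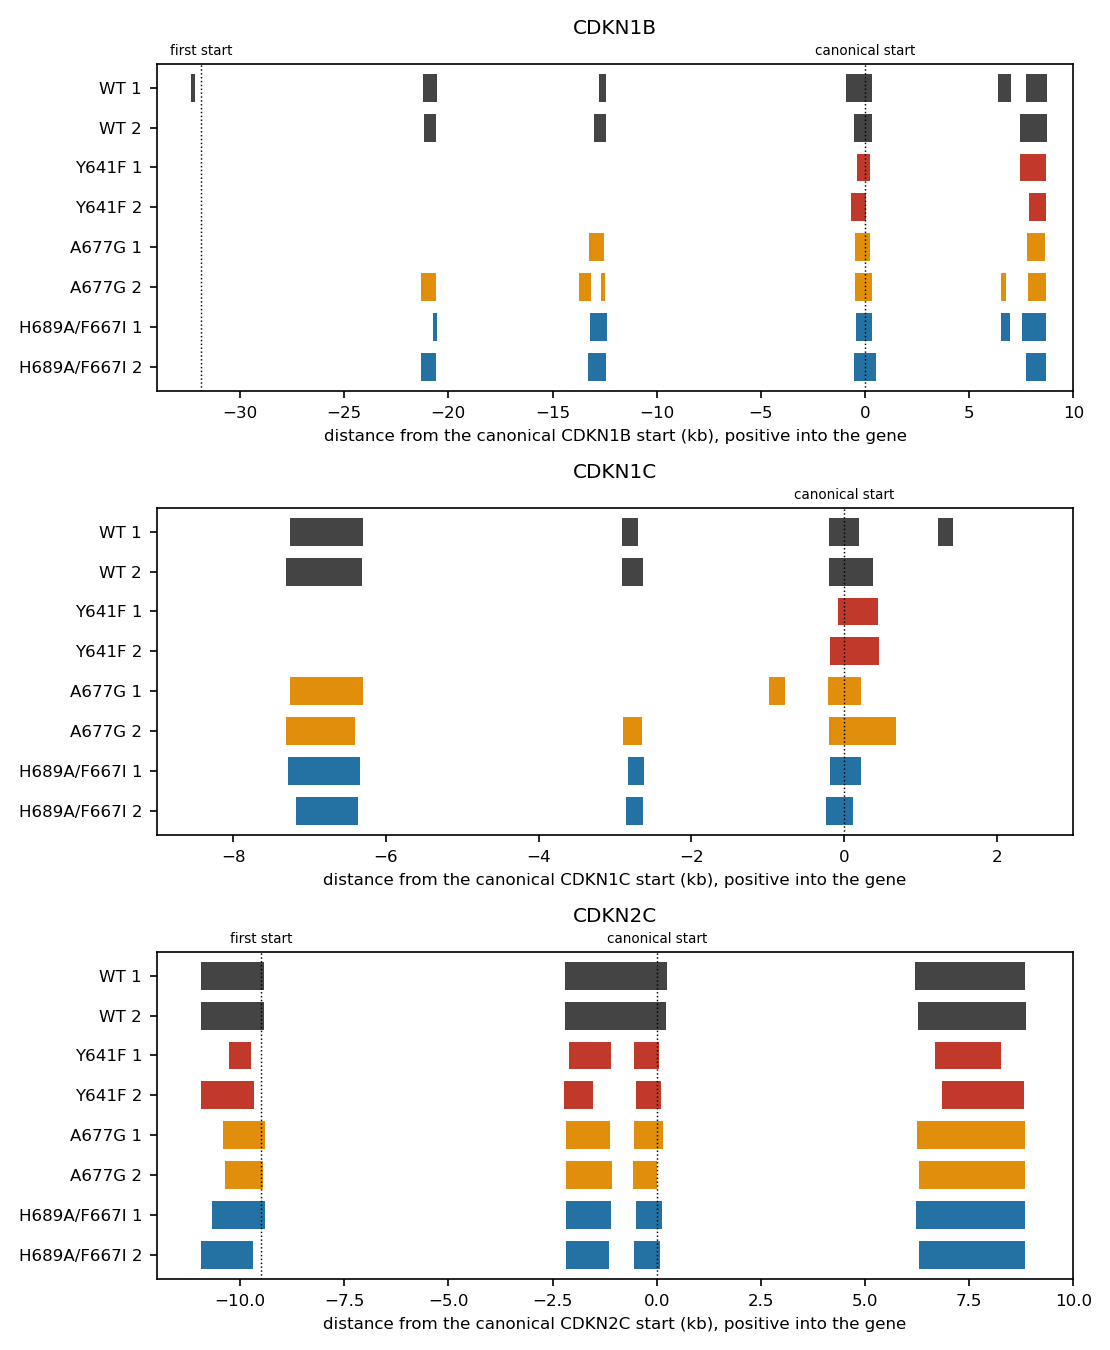
Called peaks (bars) in each library (rows) around CDKN1B, CDKN1C and CDKN2C, by distance in kb from the canonical start with positive values into the gene. The Y641F rows lack the CDKN1B intron peak and both upstream CDKN1C peaks, and the middle CDKN2C peak is 1 bar in the 2 WT libraries and 2 bars in the 6 mutant libraries.

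CDKN2C encodes p18 (ENSG00000123080.12, chr1:50960745-50974634, plus strand), and its 3 regions were open in all 8 libraries. The region chr1:50968019-50970485, which spans 2 of its start sites, was 1 peak of 2438 and 2427 bp in WT and was split into 2 peaks in each of the 6 mutant libraries. The upstream peak was 696 to 1105 bp wide and the downstream one 577 to 698 bp, with a gap of 517 to 1032 bp. All mutant gaps shared the 517 bp at chr1:50969162-50969678. The middle 200 bases of that stretch overlapped an exon of CDKN2C and had a GC content of 74.0% and 24 CpG. This pattern, picked after it was seen, occurred in 29 of the 18787 regions open in all 8 libraries (0.154%). It was shared by GOF and loss-of-function lines. In each WT library the CDKN2C peak stood at percentile 99.5 of peak width, and the share among regions of similar width was not taken.

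Another CDKN2C region, chr1:50959307-50960841, lay at the first CDKN2C start and at a start of FAF1, which encodes a ubiquitin-binding adaptor. It carried the highest fold of the CDKN2C promoters in 6 of 8 libraries, 3.99 and 4.61 in WT, 4.10 and 4.52 in H689A/F667I, 4.20 and 3.72 in Y641F, and 4.14 and 4.90 in A677G. These lines overlapped. The third, chr1:50976453-50979101, was covered over 2640 and 2589 bp in WT, 1570 and 1981 bp in Y641F, and 2542 to 2634 bp in the other 4 libraries.

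The CDKN2A/CDKN2B locus encodes 3 proteins, the CDK inhibitors p16 and p15 and, from another start and reading frame of CDKN2A, the p53 regulator p14ARF. CDKN2A (ENSG00000147889.18, chr9:21967752-21995301) and CDKN2B (ENSG00000147883.12, chr9:22002903-22009305) both lie on the minus strand. The region at the p16 start, chr9:21974366-21975911, had the highest fold of the locus in 7 of 8 libraries, the exception being H689A/F667I library 2, with 4.41 and 5.44 in WT, 5.27 and 4.13 in H689A/F667I, 4.19 and 5.16 in Y641F, and 5.21 and 4.79 in A677G. The spread within each line was as large as any difference between lines. The region at the CDKN2B start, chr9:22008615-22009666, had a fold of 3.86 and 3.80 in WT, 3.95 and 4.17 in H689A/F667I, 3.61 and 3.91 in Y641F, and 4.39 and 3.44 in A677G. The Y641F and A677G values lay on either side of the WT values, and both H689A/F667I values lay above them.

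The region at the p14ARF start, chr9:21993885-21996808, centred 20489 bp upstream of the p16 start, also holds starts of CDKN2B-AS1, the antisense RNA known as ANRIL. It was 1 peak of 2870 and 2840 bp in WT, of 1318 and 2498 bp in Y641F, of 1797 bp in A677G library 1 and of 2823 bp in H689A/F667I library 1. In A677G library 2 it was 2 peaks that covered 1917 bp together, and in H689A/F667I library 2 likewise 2 peaks over 1606 bp. Replicates of Y641F and of H689A/F667I thus differed by more than 1000 bp. The remaining region open in all libraries, chr9:22005130-22006383, within 1 kb of an internal CDKN2B start, was covered over 902 to 1251 bp in the 8 libraries.

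**Figure D3:**
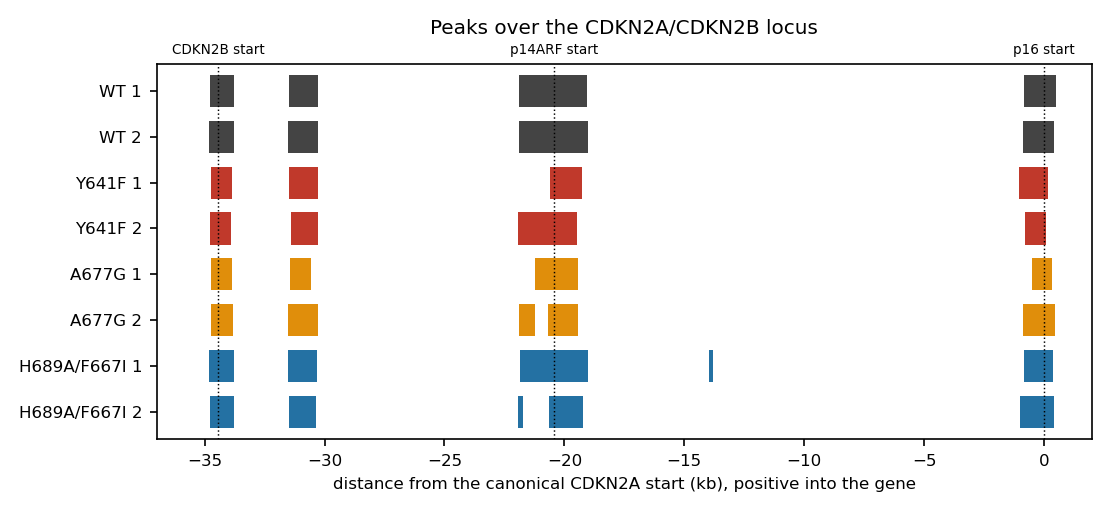
Called peaks (bars) over the CDKN2A/CDKN2B locus in each library (rows), by distance in kb from the canonical p16 start with positive values into CDKN2A, and dotted lines at 3 start sites. The same 4 regions are open in all 8 libraries, and the region at the p14ARF start covers 1318 to 2870 bp.

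CDKN2D encodes p19 (ENSG00000129355.7, chr19:10566460-10569059, minus strand). Its promoter region, chr19:10568449-10569791, was covered over 1204 and 972 bp in WT, 1146 and 1033 bp in H689A/F667I, 492 and 946 bp in Y641F, and 925 and 1209 bp in A677G. Y641F library 1 was the shortest. A region within 1 kb of a start of the neighbouring gene KRI1, chr19:10565259-10566261, was covered over 919 and 1003 bp in WT, 243 and 903 bp in H689A/F667I, 271 and 0 bp in Y641F, and 206 and 240 bp in A677G. It was long in 3 libraries and short or absent in 5.

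CDKN1A encodes p21, the inhibitor that p53 induces (ENSG00000124762.14, chr6:36676460-36687337, plus strand). Its promoter region, chr6:36678295-36680671, lay within 1 kb of 5 of its start sites. It measured 1969 and 2277 bp in WT, 1462 and 1885 bp in H689A/F667I, 1271 and 1491 bp in Y641F, and 1156 and 1607 bp in A677G. The WT peaks were the widest. The upstream region, chr6:36666895-36667958, centred 11288 bp before the canonical start, was open in all 8 libraries over 324 to 1064 bp, with a fold of 3.70 and 3.53 in WT, 4.16 and 4.65 in H689A/F667I, 2.74 and 3.50 in Y641F, and 4.17 and 3.47 in A677G.

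For CDKN2A, CDKN2C and CDKN1A, 3 of the 7 genes, the widest promoter peak was wider in both WT libraries than in all 6 mutant libraries. This was so for 35% of the 11819 genes with a promoter peak in all 8 libraries, so the 3 genes stood close to the background. Before centring, the median width of promoter peaks over all these genes differed from WT by -0.19 on the log2 scale in H689A/F667I, -0.31 in A677G and -0.52 in Y641F, and the median covered length of windows by -0.33, -0.56 and -0.94 in the same order. The differences that follow are therefore given after each library was centred on its median.

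Across the 7 genes, ordered by mean promoter fold over the 8 libraries, CDKN2A led with 4.82 ± 0.52 (SD, n = 8), followed by CDKN2C with 4.31 ± 0.331, CDKN2B with 3.89 ± 0.298, CDKN1B with 3.84 ± 0.429, CDKN2D with 3.60 ± 0.323, CDKN1A with 3.39 ± 0.198 and CDKN1C with 3.05 ± 0.31. This value is the highest fold of any peak within 1 kb of any start, so that of CDKN1B came from the GPR19-side start in WT and from the canonical promoter in Y641F. Of the 6 pairs of neighbours in this order, only CDKN1A and CDKN1C differed by more than the spread of their difference, by 0.347 ± 0.219, with CDKN1A the higher in 8 of 8 libraries. In its own list, the CDKN2A fold stood at percentile 65.7 to 92.2 of all peaks and the CDKN1C fold at 3.81 to 39.5. By −log10 p the CDKN2A promoter ranged from 8.10 to 17.7, higher in WT (15.7 ± 2.77, n = 2) than in Y641F (9.98 ± 2.67, n = 2), a column that depends on depth. The other promoters ranged in −log10 p from 8.07 to 15.4 (CDKN2B), 7.03 to 12.5 (CDKN2C), 6.80 to 14.5 (CDKN2D), 6.78 to 15.95 (CDKN1B), 8.49 to 11.4 (CDKN1A) and 4.75 to 9.32 (CDKN1C). The mean −log10 p of CDKN1A was 9.95 ± 2.07 in Y641F and 9.29 ± 0.0066 in WT, and that of CDKN1C 6.97 ± 0.661 and 5.00 ± 0.36 (SD, n = 2 each).

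**Figure D4:**
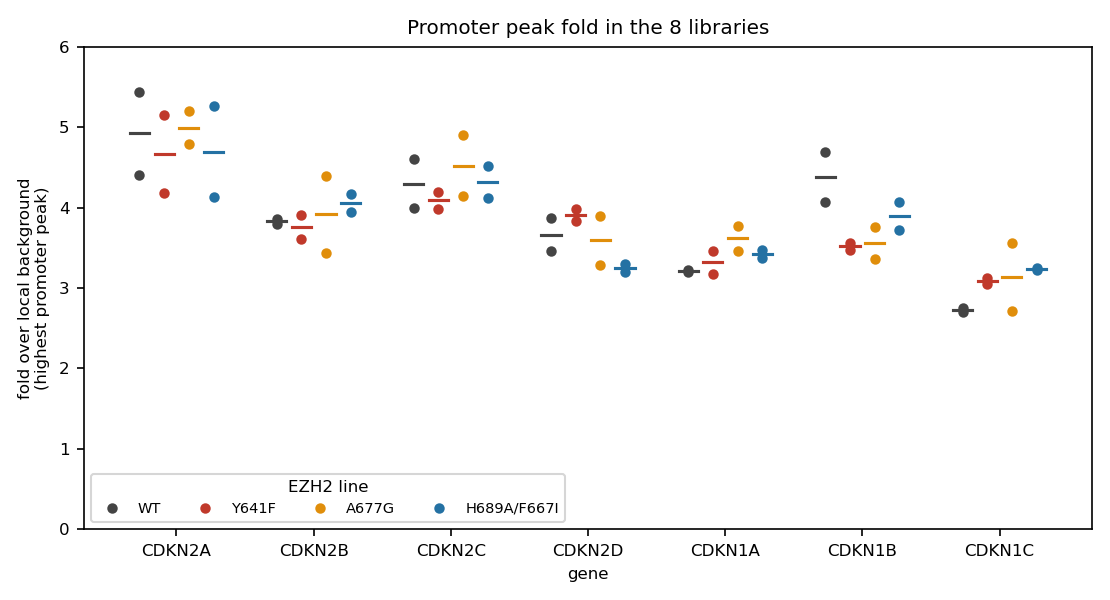
Fold over local background of the highest promoter peak of each gene (x axis) in each library (points, coloured by EZH2 line), with the mean of the 2 libraries of a line as a bar. The lines overlap for CDKN2A and CDKN2B, and the WT points are the 2 highest of CDKN1B apart from 1 H689A/F667I library.

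None of the 7 genes differed in promoter fold from WT by limma at an adjusted p under 0.05 (Benjamini-Hochberg over 11819 genes). In Y641F 0 of 7 were called against 2.58% of genes, in A677G 0 of 7 against 0%, in H689A/F667I 0 of 7 against 0%, and between the GOF lines and the other 2 lines 0 of 7 against 0.389%. At an unadjusted p under 0.05 the counts were 1, 2, 1 and 1 of 7, against 22.2%, 14.05%, 8.68% and 18.4% of all genes. The largest difference in Y641F was that of CDKN1C, 0.29 on the log2 scale (SE 0.109, limma adjusted p = 0.145), with 0.24 in A677G (adjusted p = 0.357) and 0.28 in H689A/F667I (adjusted p = 0.517). CDKN1B had the lowest value in Y641F and A677G, with -0.14 in H689A/F667I, -0.25 in A677G and -0.20 in Y641F, and limma adjusted p of 0.741, 0.319 and 0.289 in that order. These became -0.13, -0.08 and -0.03 with equal peak numbers and -0.03, -0.14 and -0.09 without WT library 1. The CDKN1C value in A677G was 0.05 without A677G library 1 and 0.42 without A677G library 2. The median over the 7 genes was 0.08 in Y641F, beside 0.02 over all genes. A difference had a median 95% interval of ± 0.24.

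In promoter peak width, 0 of 7 genes were called by limma in Y641F against 0.0508% of genes, 0 of 7 in A677G against 0.0338%, 0 of 7 in H689A/F667I against 0%, and 0 of 7 for the GOF lines against 0.144%. The counts at an unadjusted p under 0.05 were 1, 1, 1 and 2 of 7, against 20.04%, 9.79%, 5.17% and 16.8% of all genes. CDKN2C accounted for the first 3 of these, at -0.70 in H689A/F667I, -0.79 in A677G and -0.54 in Y641F (SE 0.13 each), with limma adjusted p of 0.275, 0.162 and 0.16 in that order. Its widest peak lay in the region split in the mutants in WT, A677G and Y641F library 1. In H689A/F667I and Y641F library 2 it was the peak at the FAF1 start, so these widths in part compare different regions. Centred CDKN2C covered length differed from WT by 0.09 in H689A/F667I, 0.22 in A677G and 0.19 in Y641F. In width, the CDKN1C promoter had the opposite sign to CDKN2C for the GOF lines, 0.84 (SE 0.256, limma adjusted p = 0.254), above 99.9% of genes. Without centring it was 0.49, and the widths in base pairs overlapped. They were 524 and 638 bp in Y641F, 432 and 878 bp in A677G, 393 and 578 bp in WT, and 404 and 355 bp in H689A/F667I. Intervals for width were wide, with a median of ± 0.59.

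In the covered length of the windows, CDKN2A/CDKN2B counted once, so 6 loci were tested among 17576. In Y641F 0 of 6 were called by limma against 2.4%, in A677G 0 of 6 against 0%, in H689A/F667I 0 of 6 against 0%, and for the GOF lines 0 of 6 against 0.262%. At an unadjusted p under 0.05 the counts were 2, 1, 0 and 0 of 6, against 24.4%, 9.54%, 6.16% and 19.8% of all windows. Relative to the median of its library, CDKN1C in Y641F was at -0.64 (SE 0.217, limma adjusted p = 0.142) and CDKN2A/CDKN2B at 0.51 (SE 0.174, limma adjusted p = 0.145). Neither sign was stable, as CDKN1C was at 2.41 with equal peak numbers and CDKN2A/CDKN2B at -0.77 with a −log10 q minimum of 5. With equal peak numbers the CDKN1C promoter peak was in neither WT list, so the 2.41 rests on a WT length near 0. In base pairs CDKN2A/CDKN2B was covered over 6401 and 6404 bp in WT and 4614 and 5402 bp in Y641F, so it was shorter in Y641F but by less than most windows. The median 95% interval was ± 0.51.

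Differences between the mutants were also fitted, 60 in all over the 3 pairs and 3 measures, and 0 of the 60 passed the limma threshold. Few genes of the series passed it either. Per pair, these were 0 to 5 of 11819 in fold, 0 to 23 of 11819 in width and 0 to 176 of 17576 in covered length. Among the 60, the lowest limma adjusted p was that of CDKN1C covered length between Y641F and A677G, -1.17 on the log2 scale (95% interval -1.67 to -0.66, adjusted p = 0.076). In A677G the CDKN1C window was at 0.53 relative to WT (adjusted p = 0.516), and at 3.24 with equal peak numbers. In that setting the CDKN1C promoter peak was in neither WT list, so the 3.24 is not a measure of how much longer the open window was.

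**Figure D5:**
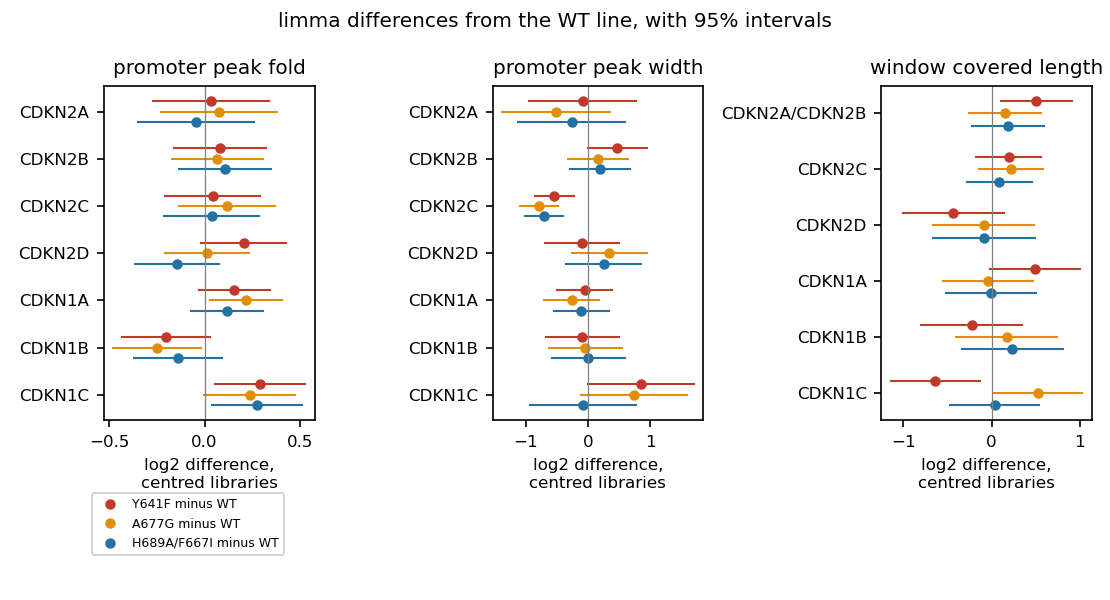
limma log2 differences of each mutant line from WT (points) with 95% intervals (bars) for promoter peak fold, promoter peak width and covered length of the window, after centring each library on its median. No difference passed an adjusted p of 0.05, and the largest departures are those of CDKN2C width and of CDKN1C.

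Of 20 genes of the G1 to S transition, chosen for their function and including the targets of these inhibitors, 19 had a promoter peak in all 8 libraries, against 59.2% of protein-coding genes, the exception being CCND1, the cyclin D1 gene, with 7. None of them rose or fell by limma in promoter fold, promoter width or covered length in any of the 4 comparisons. At an unadjusted p under 0.05, 2 to 5 of 19 passed in fold, 3 to 4 of 19 in width and 1 to 3 of 20 in covered length, against 8.68 to 22.2%, 5.17 to 20.04% and 6.16 to 24.4% of all genes. Promoter fold was 2.70 to 3.67 for CDK4, 2.74 to 3.34 for CDK6 and 3.21 to 4.29 for CDK2, the kinases, and 4.19 to 5.16 for RB1. SKP2, which marks p27 for degradation, had the highest of the list, 5.13 to 6.94.

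CDKN2D had the largest spread of line means in centred log2 promoter fold (SD 0.144 over 4 lines). The genes whose promoter fold was most similar over the 8 libraries were ZDHHC22 (r = 0.96), ARSA (r = 0.96) and GNAS (r = 0.957), out of 11819. With 8 libraries and so many genes, these values are given as a description.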

How the data were processed

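ATAC-seq peaks of 8 HEK293T libraries were analysed, 2 per EZH2 line, grouped by sample title. Per the submitters' processing notes, the authors used Trim Galore 0.6.5, BWA 0.7.17, deepTools 3.5.1 and MACS2 2.2.7.1 with GRCh38/hg38, and called broad peaks in each library. The deposited fold is the authors' ratio of pileup to local background, and the deposited −log10 p and −log10 q are those of MACS2. Each called peak has a single fold value whatever its width, so folds of wide and narrow peaks are taken over different lengths. How far fold depends on peak width was not tested. The score that the authors deposited was not used. MACS2 options, transposase read shift, mitochondrial filtering and depth are not given in the sources used here, and the count test of the study needs reads, which were not used here.

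Per gene, the highest fold and widest peak within 1 kb of a start, and log2(covered bp + 100) of the body and 10 kb around each start, were fitted with limma 3.58.1 (R 4.3.3, trend, all 4 lines, Benjamini-Hochberg over all genes) after centring each library on its median. Fold and width used genes with a promoter peak in all 8 libraries, covered length those with a peak in at least 2. The fit was tested on simulated data. All 7 genes were named, with regions at promoters or lost in a mutant. The members and lists were chosen with earlier results of these data known. Lost means 2 WT libraries with a peak and 2 mutant libraries without. The split of the CDKN2C peak and the count of peaks wider in WT were picked after the data were seen. Alternatives were a −log10 q of at least 5, equal peak numbers, no centring, a replicate block, leaving out each library, peak midpoints, 2 kb promoters, missing values allowed, a pseudocount of 500 bp, no filter, no gene body, a 2-fold cut, and 50% coverage of a region. Columns of other samples numbered 0.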

Additional observations from a re-analysis of the deposited data

Results flagged for a closer look

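Each member value was screened for a library far from the 3 others of its side, with the 4 GOF libraries as one side and the 4 WT and H689A/F667I libraries as the other. Of 40 sides, 2 had such a library, and chance flags about 1 in 20. The CDKN1A promoter peak of A677G library 1, 1156 bp wide against 1271 to 1607 bp in the other GOF libraries, had after centring a gap to its nearest neighbour that took 0.833 of the range of the side. The CDKN2A/CDKN2B window of H689A/F667I library 1, covered over 6485 bp against 5175 to 6404 bp, had a gap of 0.916 of the range after centring. Both passed Dixon's limit for 4 libraries.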

How the results depend on the processing

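Over 1184 refits of the 80 member differences, the limma call changed in 10, all without centring, and the sign of an uncalled difference changed in 102. Without centring, when the median of all genes was -0.52 in Y641F, -0.31 in A677G and -0.31 for the GOF lines in width, and -0.94 in Y641F and -0.57 for the GOF lines in covered length, 1 member was called in width in Y641F, 1 in A677G and 1 for the GOF lines, and 4 in covered length in Y641F and 3 for the GOF lines. All were lower, and CDKN2C covered length in Y641F then turned to -0.67. Of all 11819 genes, 1158 were then called in width in Y641F, 98 in A677G and 475 for the GOF lines. Of all 17576 windows, 6718 were then called in covered length in Y641F and 3907 for the GOF lines. With the replicate block 0 members were called in any comparison. Library numbers were shared by label only, and the deviations of same-numbered libraries correlated over genes at -0.025 to 0.055, so they were not treated as pairs. Leaving out each library in turn left 0 members called. The number of genes called in Y641F, 305 in fold and 421 in covered length, ranged from 0 (without either WT library and, in fold, without Y641F library 1) to 324 and 2718 (without Y641F library 2), and with the replicate block was 285 and 101. Without centring 713 genes were called in fold in Y641F, 95 higher and 618 lower, against 201 and 104 with it.

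Members' regions lost in Y641F numbered 4 of 10 under a −log10 q minimum of 5, 1 with equal peak numbers (of 10) and 5 with 50% coverage (of 15), against 44.8%, 11.6% and 49.2% of all regions. With the −log10 q minimum, 3 of the 4 were regions not otherwise lost (at the FAF1 and p14ARF starts and chr12:12724818-12726106), and 50% coverage added the canonical CDKN1B promoter and the KRI1 region. Those lost in A677G numbered 2, 0 and 1, against 29.1%, 6.82% and 33.5%, and in H689A/F667I 0 each time, against 20.6%, 6.09% and 23.6%. The CDKN1B intron was lost in Y641F in the first 2 of these settings. Gained regions, 0 as reported, numbered 2 of 2 in each mutant with equal peak numbers (the CDKN1A upstream region and the CDKN1C promoter). Of all regions that could count as gained, 21.3% (H689A/F667I), 23.3% (A677G) and 28.3% (Y641F) did so in that setting. With 50% coverage they numbered 1 of 1 in A677G, against 11.8%, and 1 of 1 in H689A/F667I, against 23.7%. Both times this was the CDKN1B intron, and Y641F had 0 of 1, against 6.47%. With the −log10 q minimum H689A/F667I had 1 of 1, against 30.6%. The GOF lines then had 0 of 1 each, against 12.2% (A677G) and 5.98% (Y641F). Bases of 1 or 2 members' regions are too small to compare with these shares. Peak lists with 2 libraries a line and no read depth limit all of these values, and median 95% intervals of ± 0.24 in fold, ± 0.59 in width and ± 0.51 in covered length bound what could be seen.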
